A study of Mus musculus with 28 samples.

Results

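Follicular helper T cells are the CD4 T cells that enter B cell follicles and help B cells form germinal centres. The transcription factor Bcl6 is required for that fate, the chemokine receptor Cxcr5 brings the cells into the follicle, the costimulatory receptor Icos sustains them, the factor Maf promotes production of interleukin 21, and the adaptor SAP, made by Sh2d1a, lets them hold on to B cells through SLAM receptors. Interleukin 21, made by Il21, is the cytokine through which they act on B cells and on CD8 cells. The 6 genes Il21, Bcl6, Cxcr5, Icos, Maf and Sh2d1a were taken by symbol from the platform annotation, which gave 8 probe sets of the 20380 that carry 1 gene symbol, or of 22690 in the table. Bcl6 and Icos each have 2 probe sets, and each of the other genes has 1. They are 6 of 12393 genes with such a probe set. They were chosen by name, with earlier results of these data known and no single comparison recorded as the reason, so their calls describe these arrays and are not independent evidence.

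Expression was measured on 28 Affymetrix Mouse 430A2 arrays in 10 groups of mouse T cells on the C57BL/6N background. CD4 cells carried the AND T cell receptor transgene and CD8 cells the OT1 receptor transgene. AND recognises a peptide on MHC class II and OT1 a peptide on MHC class I, so a CD8 minus CD4 difference cannot be told apart from a difference of receptor and antigen. All cells spent 2 days in culture with IL7 at 5 ng/ml, either in untreated wells (unstimulated) or in wells coated with anti-CD3 and anti-CD28 antibodies at 10 µg/ml (stimulated), and were collected on day 2 or moved into mice for 3 more days. On day 5, unstimulated cells came from antigen-free hosts, transient cells had been stimulated in culture and then rested in antigen-free hosts, and continuous cells had been stimulated and then placed in hosts that express their antigen, labelled dtg-O or -M. The cells were sorted to a stated purity above 99% before their RNA was amplified. Each group has 3 arrays, except CD4 unstimulated and CD4 transient on day 5 with 2 each, and the study's text calls replicates independent biological ones.

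Values are log2 signals, and a difference of 1 is a doubling of signal. Array medians lay between 6.29 and 6.53 on 26 arrays. The third unstimulated arrays of day 2 stood apart in both cell types, at 4.83 and 4.97, and their Cd8 genes went against their labels. The array labelled CD4 had Cd8a at 9.88 and Cd4 at 5.40, and that labelled CD8 had Cd8a at 5.78 and Cd8b1 at 4.79, while its Cd4 signal, 7.02, was near those of the other CD8 unstimulated arrays (7.35 and 7.21). Changes on stimulation on day 2 are therefore given with and without these 2 arrays, called the third unstimulated arrays here. On day 5 the beta-actin 3' minus 5' difference, which is larger where RNA is shorter, was 1.92 to 2.73 on the CD4 transient and CD8 unstimulated arrays and 0.312 to 1.02 on the other 11 arrays. B cell markers were highest in CD4 transient cells, where the mean of the 10 measured markers was 8.24 and 6.78, against 4.89 to 4.94 in CD4 continuous cells. Cd4 was lower there: it stood at 7.68 and 7.88 in CD4 transient cells and at 9.48 to 9.86 in CD4 continuous cells. The mean of the 6 measured pan T cell markers was 11.77 to 11.79 in CD4 transient and 11.80 to 12.00 in CD4 continuous cells. Their differences, continuous minus transient, went both ways, from -0.53 to 0.84. From transient to continuous CD4 cells Cd4 and Zbtb7b, the 2 CD4 lineage markers (median 1.36), and 3 of 6 pan T cell markers, Cd3e, Cd3g and Cd247 (median 0.16), were called higher, as 4 members were. The part of this in the members' differences was not tested. Summed RNA from sorted cells cannot tell fewer expressing cells from less RNA per cell.

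Il21 is the member on which the results turn most, so its promoter window is shown first. The gene lies on chromosome 3 from 37222759 to 37232636 on the minus strand (GRCm38.p6), and the RefSeq window from 250 bases before to 50 bases after its start is chr3:37232587-37232886. Capitals mark the letters TGGAAA, the core bound by NFAT, the calcium-driven factor of T cell receptor signalling, or their reverse complement.
Il21 promoter: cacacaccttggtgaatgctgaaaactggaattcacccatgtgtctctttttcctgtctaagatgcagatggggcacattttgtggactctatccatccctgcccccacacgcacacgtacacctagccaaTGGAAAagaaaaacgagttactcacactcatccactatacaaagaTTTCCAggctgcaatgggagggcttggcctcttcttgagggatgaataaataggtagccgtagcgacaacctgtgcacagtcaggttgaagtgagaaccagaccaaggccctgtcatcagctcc
Matches to TGGAAA stood at -119 to -114 on the gene's strand and at -74 to -69 on the opposite strand, counted from the start site. At least 1 match was present in 21.4% and at least 2 in 3.0% of 32851 RefSeq promoter windows of the same length. One match to TGCTGA, a half-site for Maf proteins, lay at -234 to -229, and 19.5% of windows hold one. The letters TGANTCA (AP-1) and TTCNNNGAA (STAT), found in 7.8% and 8.3% of windows, were not in this window. A match describes letters only, and searches covered both strands. Bcl6 lies on chromosome 16 (23965050 to 23988866), Cxcr5 on 9 (44511787 to 44526444), Icos on 1 (60960773 to 61000322), Maf on 8 (115703253 to 115706894) and Sh2d1a on X (42502565 to 42522097), in the same build.

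Il21 was high in CD4 cells kept with antigen and in no CD8 group. In CD4 continuous cells its log2 signals were 10.66, 10.93 and 9.94. The 13 other arrays of day 5 ran from 3.40 to 4.85, with CD4 unstimulated cells at 4.06 and 4.08 and CD4 transient cells at 3.65 and 4.85. CD8 continuous cells, which were also stimulated in culture and then placed in hosts with their antigen, gave 3.65, 3.86 and 3.42. No CD8 array of either day exceeded 4.22, the highest of 15. The CD4 continuous arrays overlapped no other array of day 5.

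The Il21 difference in CD4 cells was 6.44 between continuous and unstimulated cells (SE 0.30, adjusted p = 8.45e-08, limma with Benjamini-Hochberg adjustment over 20380 probe sets, as for all adjusted p here). Ordered by signed difference over all probe sets, it ranked 2 of 20380. Against CD4 transient cells the difference was 6.26 (SE 0.30, adjusted p = 5.34e-08), rank 1 of 20380. In CD8 cells the same differences were -0.02 (SE 0.27, adjusted p = 0.968) and 0.13 (SE 0.27, adjusted p = 0.800). Within continuous cells, Il21 was lower in CD8 than in CD4 cells by -6.87 (SE 0.27, adjusted p = 2.04e-09), the lowest of the 20380 signed differences. The CD8 change minus the CD4 change was -6.45 (SE 0.41, adjusted p = 2.60e-06) from unstimulated to continuous cells and -6.13 (SE 0.41, adjusted p = 4.98e-06) from transient to continuous cells. Beta-actin differences were 0.401 to 0.618 on CD4 continuous, 0.669 to 0.984 on CD4 unstimulated and 0.312 to 0.557 on CD8 continuous arrays. The part of RNA length in the Il21 differences was not tested. The deposited table has no detection calls, so folds against the dim groups are not given: they would depend on an unknown floor.

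**Figure D1:**
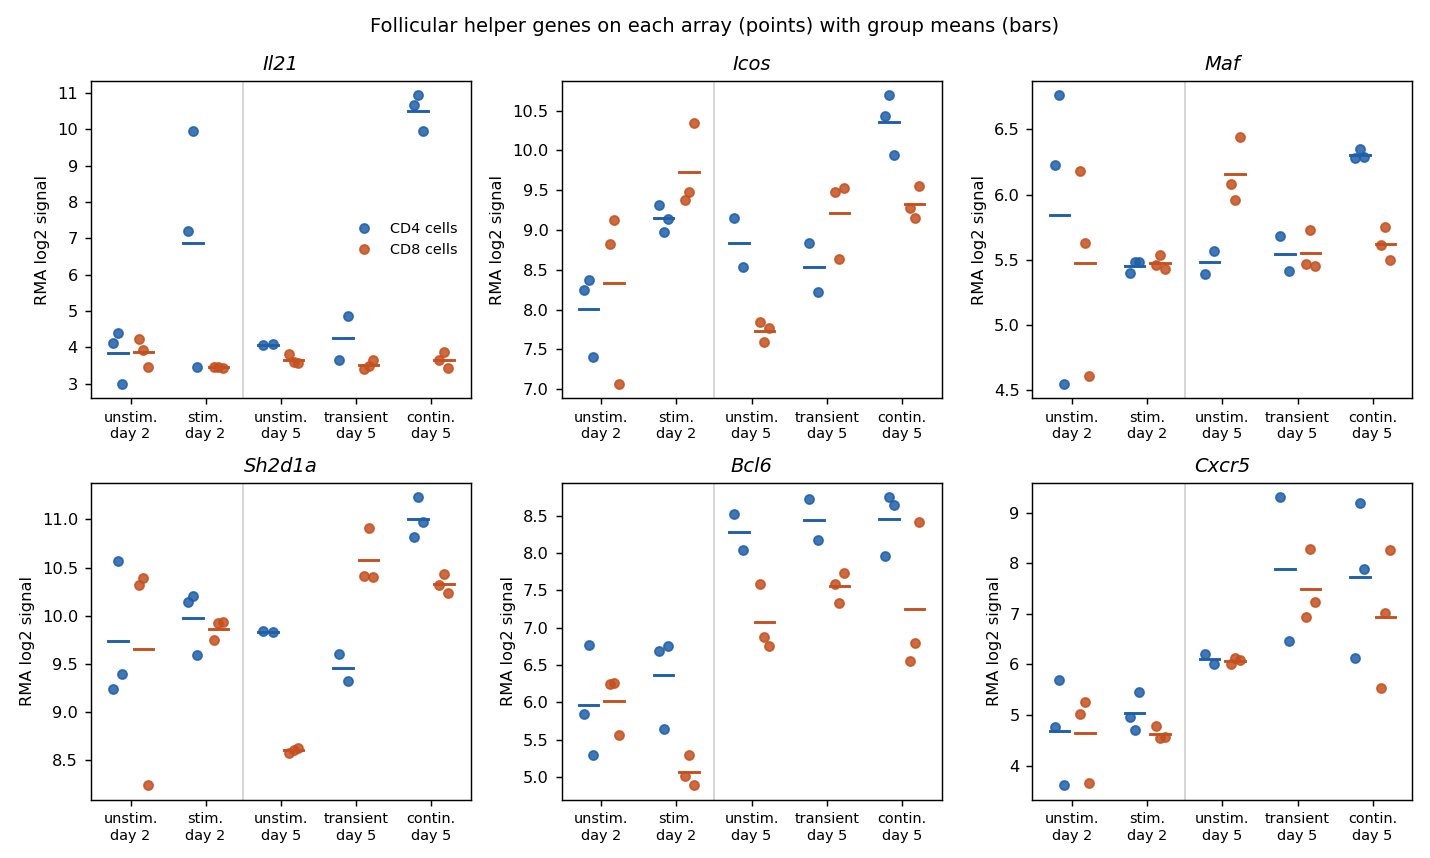
Log2 signal of the brightest probe set of each gene on every array, by group, with day 2 left and day 5 right of the grey line; points are arrays and bars are group means. Il21 stands at 9.94 to 10.93 in CD4 continuous cells and between 3.40 and 4.85 on the other day 5 arrays, while the Bcl6 arrays overlap between the 3 day 5 states within each cell type.

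On day 2, Il21 varied widely among the stimulated CD4 replicates. Its signals were 7.21, 9.94 and 3.45 there, and 4.12, 4.40 and 3.00 in unstimulated CD4 cells. Stimulated CD8 cells gave 3.46, 3.46 and 3.44. Thus 2 of 3 stimulated CD4 arrays were above every unstimulated array and the third was within their range. The CD4 difference of 3.02 (SE 1.12) did not pass the test (adjusted p = 0.108), nor did it without the third unstimulated arrays (2.60, SE 1.41, adjusted p = 0.133). It passed without the third stimulated CD4 array (4.73, adjusted p = 0.00376). The CD8 difference was -0.42 (SE 1.12, adjusted p = 0.911), and -0.63 without the third unstimulated arrays (adjusted p = 0.745). The CD8 minus CD4 difference among stimulated cells was -3.41 (SE 1.12, adjusted p = 1.00). That comparison called none of the members and 0.00981% of probe sets, while 2 members and 224 probe sets had an unadjusted p below 0.05.

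The genes whose 10 group means followed those of Il21 most closely, among 4016 genes whose group means span at least 2 log2 units, were Tgfb3 (Pearson r = 0.942), Il10 (0.937) and Tmprss4 (0.934). Such correlations over 10 group means are descriptive, and here rest largely on 1 group. Il10, an interleukin that restrains immune responses, gave 7.70, 6.49 and 5.97 in CD4 continuous cells and 3.48, 4.18 and 3.47 in CD8 continuous cells. On the CD4 continuous arrays, in the same order, the mean of 9 measured dendritic and myeloid markers was 7.73, 5.75 and 6.04. The first CD8 unstimulated array of day 5 had a mean of 8.98 with Il10 at 3.81. The part of RNA from such cells in the Il10 values was not tested. Tgfb3, a growth factor of the TGF-beta family, gave 8.52, 7.87 and 8.53 in CD4 continuous cells, and its other group means lay between 3.98 and 5.08. From unstimulated to continuous CD4 cells Il10 rose by 3.38 (SE 0.37, adjusted p = 4.19e-05) and Tgfb3 by 4.19 (SE 0.21, adjusted p = 1.13e-07). Neither passed the test in CD8 cells (0.18, adjusted p = 0.682, and 0.26, adjusted p = 0.284), and the difference between the cell types passed for both (-3.20, adjusted p = 0.000694, and -3.93, adjusted p = 6.68e-06). Without the third unstimulated arrays 2 of the 3 genes stayed among the closest, and on the day 5 means 1 of the 3 did.

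Among the regulators, Bcl6 was not called in any of the 17 comparisons of the fit by day, but some of its differences between CD8 and CD4 cells, and its CD8 change on day 2, were called under alternatives given below. The brightest probe set gave 8.53 and 8.04 in CD4 unstimulated cells of day 5, 8.72 and 8.17 in transient cells, and 7.96, 8.75 and 8.65 in continuous cells, which overlap one another. CD8 cells gave 7.59, 6.88 and 6.76 unstimulated, 7.59, 7.33 and 7.74 transient, and 6.56, 6.79 and 8.42 continuous. The continuous minus unstimulated difference was 0.17 (SE 0.45, adjusted p = 0.863) in CD4 and 0.18 (SE 0.40, adjusted p = 0.737) in CD8 cells. Bcl6 therefore showed no detectable difference in the CD4 comparison in which Il21 ranked near the top, with a standard error of 0.45 setting what could be detected.

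Bcl6 means were lower in CD8 than in CD4 cells in every state of day 5, by -1.21 unstimulated (SE 0.45, adjusted p = 0.0608), -0.89 transient (SE 0.45, adjusted p = 0.173) and -1.20 continuous (SE 0.40, adjusted p = 0.0784), none of which passed. The unstimulated difference passed in 6 of 23 alternatives, among them the replicate block (-1.36, adjusted p = 0.0417), array weights (-1.31, adjusted p = 0.0180) and leaving out the first CD8 unstimulated array (-1.46, adjusted p = 0.0397). The lowest adjusted p of the 23 was 0.00716, without the third CD8 continuous array, which enters this difference through the shared estimate of spread, and the highest was 0.352. The arrays did not overlap in the unstimulated and transient states, as for 53.7% and 51.1% of all probe sets there. One array, the third CD8 continuous one, overlapped the CD4 range in the continuous state: without it the continuous difference was -1.78 (adjusted p = 0.00206), the transient difference of -0.89 passed (adjusted p = 0.0352), and Bcl6 was lower in continuous than in transient CD8 cells (-0.88, adjusted p = 0.0361, against -0.30, adjusted p = 0.669, with it). With array weights the continuous difference was -1.60 (adjusted p = 0.00210). On that array the mean of the B cell markers was 6.00, against 5.41 and 5.11 on the other CD8 continuous arrays, and Bcl6 is also expressed by germinal centre B cells. The part of B cell RNA in this value was not tested. Day 2 signals ran lower, from 4.89 to 6.77, but arrays of the 2 days were not compared in a test.

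On day 2, Bcl6 gave 5.84, 6.77 and 5.29 in unstimulated and 6.69, 5.65 and 6.75 in stimulated CD4 cells, which overlap. CD8 cells gave 6.25, 6.26 and 5.56 unstimulated and 5.02, 5.30 and 4.89 stimulated, so that all stimulated CD8 arrays lay below the unstimulated ones, as for 12.8% of all probe sets. The CD8 difference of -0.95 (SE 0.47, adjusted p = 0.262) did not pass. It passed without the third unstimulated arrays (-1.18, SE 0.37, adjusted p = 0.0357), after median centring (-1.34, adjusted p = 0.0241) and with array weights (-1.13, adjusted p = 0.0205), so the call depends on how those arrays enter. For CD8 stimulation those alternatives called, in that order, 7097, 5493 and 9220 of 20380 probe sets. The CD4 difference of Bcl6 was 0.40 (SE 0.47, adjusted p = 0.704), and 0.06 without the third unstimulated arrays (adjusted p = 0.902). Among stimulated cells Bcl6 was at -1.29 in CD8 minus CD4 (SE 0.47, adjusted p = 1.00), with no overlap, as for 13.6% of probe sets in that direction. That difference passed with array weights (-1.38, adjusted p = 0.00154).

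The second Bcl6 probe set stayed between 4.09 and 5.82 on all arrays and gave no call, so the probe sets disagree on the CD8 minus CD4 difference (0.15, -0.02 and -0.35 on day 5). Group means most like those of Bcl6 belonged to Inpp4a (r = 0.972), Snx14 (0.948) and Runx1 (0.939).

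Maf, the other regulator, moved in opposite directions in CD4 and CD8 cells under continuous antigen, within a narrow range. Its signals in CD4 cells were 5.39 and 5.57 unstimulated, 5.68 and 5.41 transient, and 6.28, 6.35 and 6.29 continuous. In CD8 cells they were 6.08, 5.96 and 6.44 unstimulated, 5.47, 5.73 and 5.45 transient, and 5.61, 5.75 and 5.50 continuous. CD4 continuous arrays lay above the other CD4 arrays of day 5, while CD8 unstimulated arrays lay above the other CD8 arrays. Maf rose by 0.82 in CD4 cells from unstimulated to continuous (SE 0.15, adjusted p = 0.00175) and by 0.77 from transient to continuous (SE 0.15, adjusted p = 0.00141). In CD8 cells it fell by 0.54 from unstimulated to continuous (adjusted p = 0.00482) and by 0.61 from unstimulated to transient (adjusted p = 0.00374). The difference between the changes from unstimulated to continuous was -1.37 (SE 0.20, adjusted p = 0.000518). CD8 unstimulated arrays, the highest for Maf among CD8 cells, also had beta-actin differences of 1.92 to 2.44, and the part of RNA length in the CD8 change was not tested. Within continuous cells, whose beta-actin differences were 0.312 to 0.618, Maf was lower in CD8 than in CD4 cells by -0.69 (SE 0.14, adjusted p = 0.00620). Some pan T cell markers also differed in that comparison, as given for Sh2d1a below.

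On day 2, Maf stood at 6.23, 6.76 and 4.55 in unstimulated and 5.40, 5.48 and 5.48 in stimulated CD4 cells. The lowest value is on the third unstimulated array. The difference was -0.39 (SE 0.55, adjusted p = 0.758) with it and -1.04 (SE 0.21, adjusted p = 0.00297) without the third unstimulated arrays, so the call depends on those arrays. Without them, 12704 of 20380 probe sets were called for CD4 stimulation. In CD8 cells Maf stood at 6.18, 5.63 and 4.61 unstimulated and at 5.46, 5.54 and 5.43 stimulated. The CD8 difference was 0.00 (SE 0.55, adjusted p = 1.00), and -0.43 without those arrays (SE 0.21, adjusted p = 0.144). The Maf group means spanned 0.85 log2 units, and the closest genes were Serpinb5 (r = 0.771), Ccr2 (0.738) and Esm1 (0.718).

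Of the receptors, Icos was highest in CD4 continuous cells. The brightest probe set gave 10.43, 10.69 and 9.94 there, 9.15 and 8.53 in CD4 unstimulated cells and 8.84 and 8.22 in CD4 transient cells. CD8 cells gave 7.85, 7.59 and 7.77 unstimulated, 9.48, 8.64 and 9.53 transient, and 9.27, 9.15 and 9.55 continuous. CD4 continuous arrays thus lay above all other day 5 arrays, and CD8 unstimulated arrays below all others. Icos rose by 1.52 in CD4 (SE 0.29, adjusted p = 0.00245) and by 1.59 in CD8 cells (SE 0.26, adjusted p = 0.000237) from unstimulated to continuous. From transient to continuous it rose by 1.82 in CD4 cells (SE 0.29, adjusted p = 0.000295), against 0.11 in CD8 cells (SE 0.26, adjusted p = 0.828), and the difference between these changes was -1.71 (SE 0.39, adjusted p = 0.00867). CD8 transient cells were already 1.48 above unstimulated ones (SE 0.26, adjusted p = 0.000788), and CD4 transient cells differed from theirs by -0.31 (SE 0.32, adjusted p = 0.554). Some pan T cell markers moved beside Icos in comparisons with these groups. Cd3e, Cd3g and Cd247 were called higher from unstimulated to transient CD8 cells (3 of 6, median 0.57) and, with Cd4 and Zbtb7b, from transient to continuous CD4 cells. Differences of all 6 ran from 0.02 to 0.96 in the CD8 and from -0.53 to 0.84 in the CD4 comparison. From unstimulated to continuous CD8 cells, where Icos rose by 1.59, 3 of the 6 were called, beside 46.0% of all probe sets. The 6 differences there went both ways, from -0.72 to 0.58. From unstimulated to continuous CD4 cells, where Icos rose by 1.52, limma called 0 of the 6 (median -0.36), and 3 had an unadjusted p below 0.05, with differences of all 6 between -0.59 and 0.13.

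The second Icos probe set gave the same directions with larger differences. Its signals were 10.53, 11.19 and 10.97 in CD4 continuous cells, 8.69 and 8.85 in unstimulated and 7.46 and 6.94 in transient CD4 cells. On this probe set the CD4 transient value was called lower than the unstimulated one (-1.57, SE 0.28, adjusted p = 0.00122), which the brightest probe set did not show. The continuous minus transient difference in CD4 cells was 3.70 (SE 0.26, adjusted p = 5.19e-07). Low Icos on day 5 coincided with the groups of large beta-actin differences, CD4 transient and CD8 unstimulated, and the part of RNA length was not tested. Between groups with small beta-actin differences, Icos was 1.52 higher in continuous than in unstimulated CD4 cells, as given above. It was also lower in CD8 than in CD4 continuous cells (-1.03, SE 0.26, adjusted p = 0.0239), a call lost when any of 4 of the 6 arrays was left out. The second probe set gave -1.26 (SE 0.23, adjusted p = 0.00392) for that difference. Some pan T cell markers also differed there, as given for Sh2d1a below.

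On day 2, Icos was 8.25, 8.37 and 7.41 in unstimulated and 9.32, 8.98 and 9.14 in stimulated CD4 cells, and 8.82, 9.12 and 7.07 against 9.38, 9.48 and 10.34 in CD8 cells. Stimulated arrays lay above unstimulated ones in both cell types, as for 27.7% and 26.2% of all probe sets in that direction. The differences of 1.14 (SE 0.54, adjusted p = 0.216) and 1.40 (SE 0.54, adjusted p = 0.136) did not pass. Without the third unstimulated arrays the CD4 difference was 0.84 and passed (SE 0.28, adjusted p = 0.0274). The CD8 difference was then 0.77 and did not pass (SE 0.28, adjusted p = 0.0598). Without those arrays 12704 of 20380 probe sets were called for CD4 and 7097 for CD8 stimulation. The Icos call is read against that background and does not set Icos apart. Over 10 group means Icos was most like Acadl (r = 0.929), Carhsp1 (0.903) and Eif1ax (0.902).

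Cxcr5, the receptor for the follicular chemokine Cxcl13, was not called in any of the 17 comparisons and had the largest standard errors of the members on day 5. It gave 6.20 and 6.01 in CD4 unstimulated cells of day 5, 9.31 and 6.47 in transient, and 6.13, 9.20 and 7.88 in continuous cells. CD8 cells gave 6.01, 6.12 and 6.08 unstimulated, 6.94, 8.28 and 7.24 transient, and 5.54, 7.02 and 8.27 continuous. Unstimulated arrays of both types lay between 6.01 and 6.20, while each of the other groups spread over more than 1 unit. All CD8 transient arrays and both CD4 transient arrays lay above their unstimulated ones, as did 19.8% and 31.1% of all probe sets. The differences were 1.42 (SE 0.82, adjusted p = 0.215) and 1.78 (SE 1.00, adjusted p = 0.237), and the continuous minus unstimulated differences 1.63 in CD4 (SE 0.91, adjusted p = 0.258) and 0.88 in CD8 cells (SE 0.82, adjusted p = 0.401). On day 2 Cxcr5 ran from 3.61 to 5.69 over all groups, with the third unstimulated arrays lowest at 3.61 and 3.65. The stimulated minus unstimulated difference was 0.36 in CD4 cells (SE 0.56, adjusted p = 0.785) and turned to -0.18 without those arrays (SE 0.30, adjusted p = 0.609). In CD8 cells it was -0.01 (SE 0.56, adjusted p = 0.999), and -0.51 without them (SE 0.30, adjusted p = 0.206).

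Naive B cells also express Cxcr5, and its highest signal, 9.31, was on the CD4 transient array with the highest B cell marker mean, 8.24, where Ms4a1, the gene of CD20, stood at 12.85. The second highest, 9.20, was on a CD4 continuous array of a group whose marker means were 4.89 to 4.94. The third CD8 continuous array, at 8.27 for Cxcr5, had a marker mean of 6.00. The part of B cell RNA in the transient and CD8 values was not tested. Over 10 group means Cxcr5 was most like Anxa1 (r = 0.965), Myl4 (0.957) and Plaat3 (0.953).

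**Figure D2:**
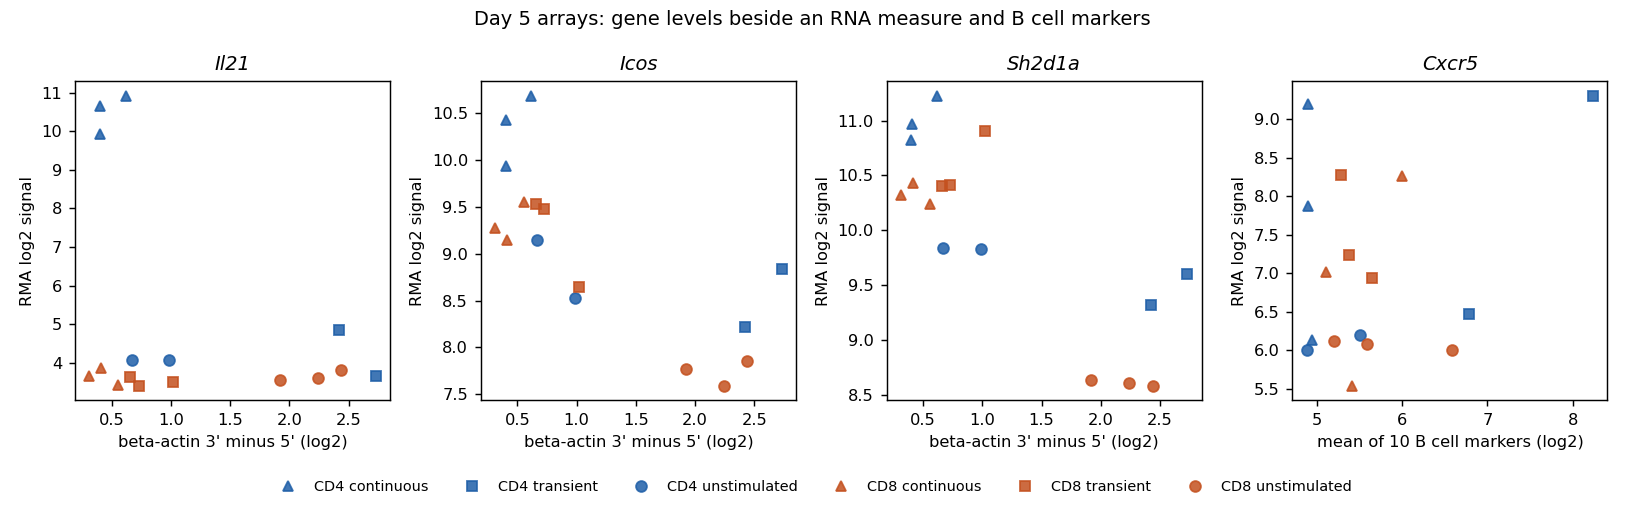
Day 5 arrays: log2 signals of Il21, Icos and Sh2d1a against the beta-actin 3' minus 5' difference, and of Cxcr5 against the mean log2 signal of 10 B cell markers; each point is an array, coloured by cell type and shaped by state. The 5 CD4 transient and CD8 unstimulated arrays lie at 1.92 to 2.73 on the beta-actin axis, with low Icos and Sh2d1a. Il21 is high on the CD4 continuous arrays only.

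Sh2d1a, the adaptor, was the brightest member by its mean over all arrays (9.92), and like Icos it was highest in CD4 continuous and lowest in CD8 unstimulated cells on day 5. CD4 cells gave 9.84 and 9.83 unstimulated, 9.60 and 9.32 transient, and 10.82, 11.23 and 10.97 continuous. CD8 cells gave 8.58, 8.61 and 8.63 unstimulated, 10.41, 10.91 and 10.40 transient, and 10.32, 10.43 and 10.24 continuous. CD4 continuous arrays overlapped only 1 CD8 transient array, and the CD8 unstimulated arrays were the lowest. The gene rose by 1.17 in CD4 (SE 0.16, adjusted p = 0.000235) and by 1.72 in CD8 cells (SE 0.15, adjusted p = 7.61e-07) from unstimulated to continuous. From unstimulated to transient it rose by 1.97 in CD8 cells (SE 0.15, adjusted p = 7.38e-07), against -0.38 in CD4 cells (SE 0.18, adjusted p = 0.155), and the changes differed by 2.35 (SE 0.23, adjusted p = 3.66e-06).

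From transient to continuous Sh2d1a rose by 1.54 in CD4 cells (SE 0.16, adjusted p = 1.03e-05) and was at -0.24 in CD8 cells (SE 0.15, adjusted p = 0.256), with a difference of -1.79 between the changes (SE 0.22, adjusted p = 0.000141). In the same CD4 comparison Cd4, Zbtb7b, Cd3e, Cd3g and Cd247 were called higher and 9 of 10 B cell markers lower, and in CD8 cells Cd3e, Cd3g and Cd247 rose with Sh2d1a from unstimulated to transient. From unstimulated to continuous CD4 cells, where Sh2d1a rose by 1.17, limma called 0 of 10 B cell markers, with 0 at an unadjusted p below 0.05, and 0 of 6 pan T cell markers, as given for Icos. CD8 minus CD4 was -1.23 in unstimulated cells (adjusted p = 0.000106), 1.11 in transient cells (adjusted p = 0.000202) and -0.67 in continuous cells (SE 0.15, adjusted p = 0.0103). The sign thus turned in the transient state, the state in which CD4 cells had the larger beta-actin differences, and the part of RNA length there was not tested. In the continuous state both cell types had small beta-actin differences. There limma called 3 of 6 pan T cell markers, Cd3g, Cd247 and Cd2, beside 10.3% of all probe sets. Differences of all 6 markers, CD8 minus CD4, lay between -1.02 and 0.07. The part of T cell content in the members' CD8 minus CD4 differences was not tested. On day 2 the signals were 9.24, 10.57 and 9.39 in unstimulated and 10.14, 10.20 and 9.59 in stimulated CD4 cells, and 10.32, 10.39 and 8.24 against 9.75, 9.92 and 9.93 in CD8 cells. These groups overlap, and neither difference passed (0.24 and 0.21, adjusted p = 0.868 and 0.911). Without the third unstimulated arrays, the CD8 one of which gave the 8.24, the CD8 difference turned to -0.49 (SE 0.35, adjusted p = 0.291) and the CD4 one was 0.07 (SE 0.35, adjusted p = 0.871), so no direction is given for day 2. Over 20 alternatives the CD8 difference ran from -0.81 to 0.58. The genes most like Sh2d1a over 10 group means were Itgb1 (r = 0.917), Ap3s1 (0.880) and Cdc25b (0.874), none of which stayed among the closest 3 without the third unstimulated arrays.

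Counted over the 6 genes, by the brightest probe set, Il21, Icos, Maf and Sh2d1a were called higher in CD4 continuous than in CD4 unstimulated cells, and none lower. In that comparison 20.1% of all probe sets were called, 9.71% of them higher and 10.4% lower, as shares of all tested. The median difference of the members was 1.34, against -0.02 over all probe sets. The same 4 genes were higher in continuous than in transient CD4 cells, where 33.4% of probe sets were called and 18.2% were higher. Both comparisons share the CD4 continuous arrays. In CD8 cells from unstimulated to continuous, Icos and Sh2d1a rose and Maf fell, with 46.0% of probe sets called and member and overall medians of 0.53 and -0.10. From unstimulated to transient CD8 cells Icos and Sh2d1a rose and Maf fell too, with 30.3% called, and these 2 comparisons share the CD8 unstimulated arrays. No member was called from transient to continuous in CD8 cells (26.5% called) or from unstimulated to transient in CD4 cells (22.8% called), and none had an unadjusted p below 0.05 in either.

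Between cell types, 4 of 6 members (Il21, Icos, Maf and Sh2d1a) were lower in CD8 than in CD4 continuous cells, where 10.3% of probe sets were called and 4.26% lower. The members' median was -0.91, against 0.00 over all probe sets. Of 6 pan T cell markers 3 were called there too, as given for Sh2d1a, and their part was not tested. In unstimulated cells of day 5 Icos and Sh2d1a were lower and Maf higher in CD8 cells, with 27.7% called, and in transient cells Sh2d1a was higher, with 26.4% called. Icos in transient cells was at 0.68 in CD8 minus CD4 by its brightest probe set (SE 0.29, adjusted p = 0.106). Its second probe set was called higher there (1.98, SE 0.26, adjusted p = 7.40e-05). On day 2 no member was called after stimulation in CD4 (10.9% called) or CD8 cells (7.94% called) with all arrays. One member had an unadjusted p below 0.05 in each of these. Differences between the changes of the cell types were called for 3 members from unstimulated to transient (36.5% called), 2 from unstimulated to continuous (19.1%) and 4 from transient to continuous (17.6%). The CD8 minus CD4 comparison of unstimulated cells on day 2 called 0% of probe sets with limma, and 152 probe sets but no member had an unadjusted p below 0.05. The difference of the day 2 changes also called 0%, with 121 probe sets and 1 member below that level.

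**Figure D3:**
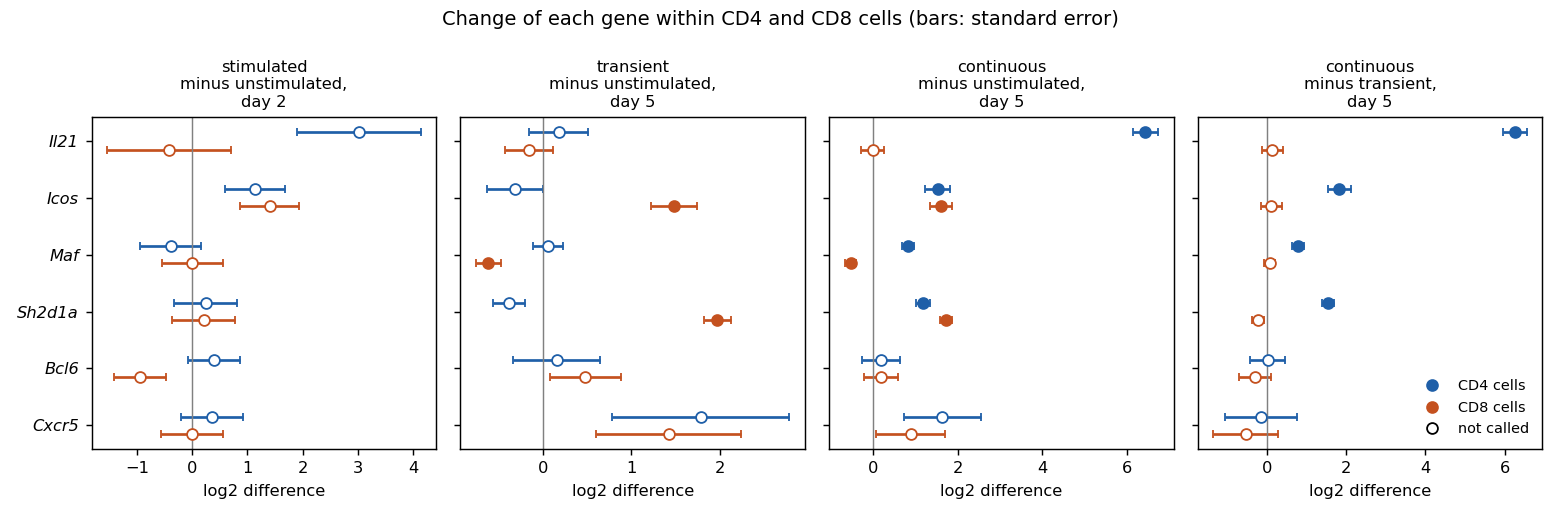
Log2 differences of each gene in CD4 (blue) and CD8 (orange) cells for the 4 changes of state, with standard errors as bars; filled points were called at an adjusted p below 0.05. Il21 changed by 6.44 and 6.26 in CD4 cells on going to the continuous state, and by -0.02 and 0.13 in CD8 cells.

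Other genes of the follicular helper programme are given as lists, beside the share of all probe sets called in the same comparison. From unstimulated to continuous cells that share was 20.1% in CD4 and 46.0% in CD8 cells, so the CD8 counts below are read against that higher background. Of 11 measured helper-fate factors, 4 rose and 1 fell in CD4 cells (median 0.18, against -0.02 over all probe sets). Irf4, which is required for helper fates, rose by 2.73 (SE 0.60, adjusted p = 0.00536), Pou2af1 by 2.09 (adjusted p = 0.0248), Nfatc1, the NFAT factor, by 1.78 (SE 0.17, adjusted p = 1.39e-05) and Batf, the AP-1 partner of Irf4, by 1.30 (adjusted p = 0.000593). Lef1 fell by 1.57 (adjusted p = 0.00484). In CD8 cells 5 of 11 rose and 1 fell, against 46.0% of all probe sets called (median 0.22, against -0.10): Irf4 by 3.18, Egr2 by 2.14, Batf by 1.72, Nfatc1 by 1.27 and Lef1 by 0.87 rose, and Egr3 fell by 0.38. Irf4 and Batf, unlike Il21, thus rose in both cell types. Within continuous cells only Nfatc1 of this list was lower in CD8 than in CD4 cells (-0.59, SE 0.15, adjusted p = 0.0231). In that comparison 10.3% of all probe sets were called.

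Of 11 measured factors that oppose the follicular fate, 2 rose and 4 fell in CD4 continuous cells, where 20.1% of probe sets were called (median -0.27, against -0.02). In CD8 cells 4 rose and 2 fell, where 46.0% were called (median 0.21, against -0.10). Tbx21, the T-bet gene that drives the type 1 helper fate, changed most: it rose by 5.16 in CD4 (SE 0.39, adjusted p = 3.26e-06) and by 3.23 in CD8 cells. Il2ra, the high-affinity interleukin 2 receptor chain, rose by 1.87 and 2.58. Foxp1 and Foxo1, which restrain the follicular fate, fell by 1.45 and 1.08 in CD4 and by 1.53 and 0.66 in CD8 cells. Stat5a and Foxp3 fell in CD4 cells by 1.39 and 1.07. No gene of this list differed between CD8 and CD4 continuous cells by a call, where 10.3% of all probe sets were called. Prdm1, the repressor that opposes Bcl6, was not called in CD4 cells (1.80 from unstimulated to continuous, SE 0.65, adjusted p = 0.0683) and rose by 1.74 from transient to continuous CD8 cells (SE 0.58, adjusted p = 0.0400).

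Surface and signal genes of follicular helper cells had calls in both directions. In CD4 continuous against unstimulated cells, Cd200 rose by 1.79 and Tnfrsf4 by 0.92, and the interleukin 6 receptor chains Il6ra and Il6st fell by 2.09 and 1.74, 4 calls among 11 genes, beside 20.1% of probe sets (median 0.23). In CD8 cells 6 of 11 were called, beside 46.0%: Cd200 rose by 4.68 (SE 0.27, adjusted p = 5.11e-08), Pdcd1, the inhibitory receptor PD-1, rose by 3.40 (SE 0.41, adjusted p = 1.72e-05), Cd83 by 2.63 and Cd28 by 2.02, while Il6ra fell by 3.93 and Il6st by 0.98 (median 0.18). Among the 4 measured positioning genes, Ccr7, which holds cells in the T cell zone, fell by 2.36 in CD4 and 1.68 in CD8 cells. Cxcr4 rose by 1.73 and S1pr1 fell by 1.01 in CD4 cells.

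Of 6 measured partners of SAP, 3 were called in CD4 and 4 in CD8 cells. Slamf1 and Slamf6, receptors that signal through SAP, rose by 1.41 and 1.25 in CD4 continuous cells and by 1.70 and 1.56 in CD8 continuous cells, against unstimulated cells. Ly9 fell by 0.52 and 0.79. Fyn, the kinase that SAP recruits, rose by 1.27 in CD8 cells. Medians were 0.37 and 0.76. Slamf6 was among the 3 genes most like Icos and Sh2d1a on the 6 group means of day 5 (r = 0.975 and 0.980), and it too was low in CD4 transient and CD8 unstimulated cells. No SAP partner was called between CD8 and CD4 continuous cells, where 10.3% of all probe sets were called.

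**Figure D4:**
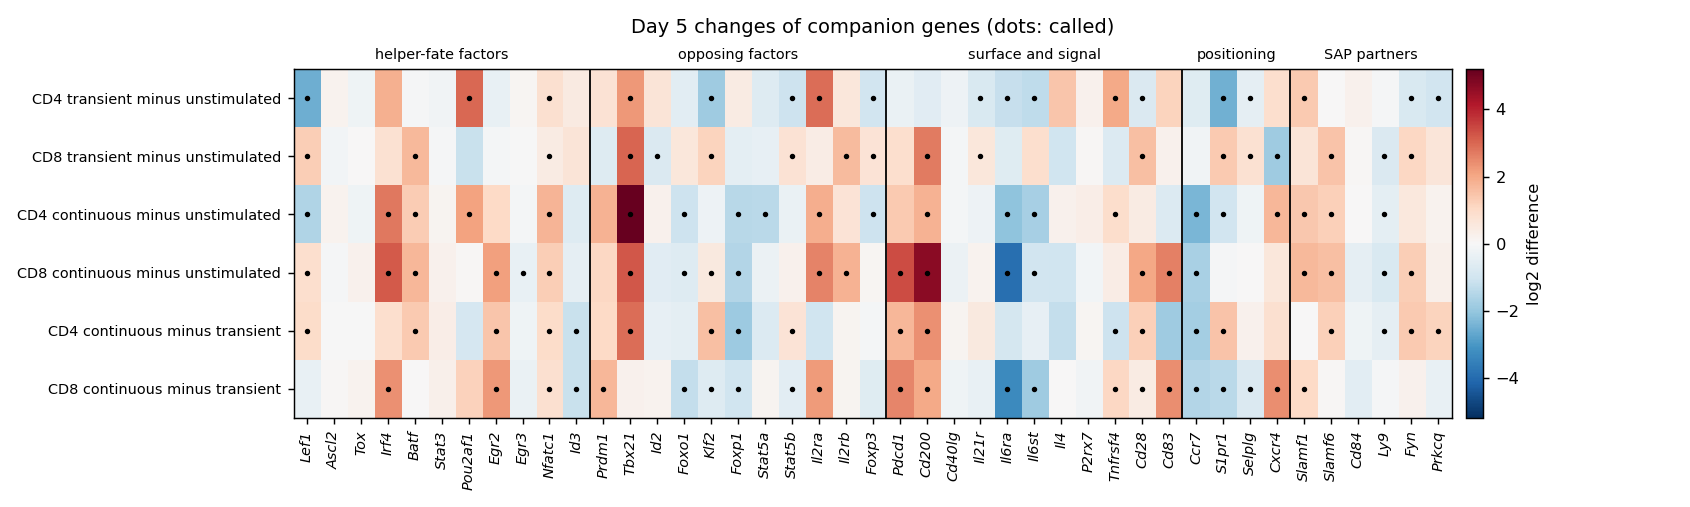
Log2 differences on day 5 for 43 companion genes in 5 lists (columns), for 3 changes of state in CD4 and CD8 cells (rows); red is higher and blue lower in the first-named state, and dots mark an adjusted p below 0.05. Irf4, Tbx21, Slamf1 and Slamf6 are red and dotted in both cell types in the continuous minus unstimulated rows, while Pdcd1 and Cd83 are dotted there in CD8 cells.

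In these lists, and in the comparisons of members, the CD8 unstimulated arrays enter every CD8 change from unstimulated cells, and they had beta-actin differences of 1.92 to 2.44 against 0.312 to 0.557 on the CD8 continuous arrays, whose part in the CD8 changes was not tested. Pou2af1, a B cell coactivator as well as a helper gene, rose by 2.97 from unstimulated to transient CD4 cells, together with 6 of 10 B cell markers (median 1.97, against 0.02 over all probe sets). In continuous cells, where Pou2af1 was also higher than in unstimulated cells, no B cell marker was called in that comparison (median -0.23). The mean of 5 measured plasma cell markers, which include Irf4, was 6.91 to 8.12 in CD4 continuous and 6.27 to 7.14 in CD4 unstimulated cells. It was 8.75 to 8.97 in CD4 transient cells. The part of B cell or plasma cell RNA in the Pou2af1 values was not tested. From transient to continuous CD4 cells 9 of 10 B cell markers fell (median -2.16).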

How the data were processed

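The authors deposited a table of log2 signals for 22690 probe sets on 28 arrays, made with RMA per the submitters' processing notes (version not given in the sources used here); these values were used unchanged, with 64 control probe sets, 691 with several symbols and 1555 without a symbol left out of the fits. RMA pools probes and normalizes arrays, which compresses differences of dim probe sets. Array medians ran from 4.83 to 6.53, so the 28 deposited arrays do not share a common distribution of values. Gene symbols came from the platform annotation. For each day a group-means model was fitted with limma 3.58.1 (R 4.3.3) to all 20380 remaining probe sets (12393 genes): day 2 with 12 arrays and 8 residual degrees of freedom, day 5 with 16 and 10. Tests were two-sided, p-values were Benjamini-Hochberg adjusted over 20380, and a call is an adjusted p below 0.05. A gene counts by its brightest probe set.

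The members and the companion and marker lists (5 and 9) were chosen with earlier results of these data known. Named are all members, up to 3 called genes per companion list, comparison and direction, those needed to account for counts of 5 or fewer, and the 3 genes closest to each member. Genes named beyond that, such as Prdm1, were chosen after their values were seen. The code was tested on simulated data. Precision is limited by 2 or 3 arrays a group.

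Among comparisons with 3 same-numbered pairs, such arrays deviated most alike in every pair only for CD8 transient against unstimulated cells of day 5. There r was 0.475, 0.298 and 0.160 over probe sets. With 2 pairs, they did so for CD4 continuous against unstimulated cells (0.383 and 0.245) and for CD8 against CD4 unstimulated cells of day 5 (0.394 and 0.321). Such pairing is a hint from the data and not from the labels. Alternatives were other normalization, probe set filters, a joint fit, array weights, a replicate block and leaving out arrays.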

Additional observations from a re-analysis of the deposited data

Results flagged for a closer look

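The change of a gene differed between CD8 and CD4 cells, by a test of that difference with limma, in 9 cases on day 5. Of all probe sets, 36.5% were called in the difference from unstimulated to transient cells. The share was 19.1% from unstimulated to continuous and 17.6% from transient to continuous cells. From unstimulated to transient cells the CD8 change exceeded the CD4 change by 1.78 for Icos (SE 0.42, adjusted p = 0.00401) and by 2.35 for Sh2d1a (SE 0.23, adjusted p = 3.66e-06), and the difference for Maf was -0.67 (SE 0.21, adjusted p = 0.0254). From unstimulated to continuous cells the difference was -6.45 for Il21 (SE 0.41, adjusted p = 2.60e-06) and -1.37 for Maf (SE 0.20, adjusted p = 0.000518). From transient to continuous cells it was -6.13 for Il21 (SE 0.41, adjusted p = 4.98e-06), -1.71 for Icos (SE 0.39, adjusted p = 0.00867), -0.70 for Maf (SE 0.20, adjusted p = 0.0294) and -1.79 for Sh2d1a (SE 0.22, adjusted p = 0.000141). The CD4 arrays behind each difference that uses the transient state had beta-actin 3' minus 5' differences of 2.42 to 2.73, and the CD8 unstimulated arrays 1.92 to 2.44. T cell markers moved with these differences: Cd3e, Cd3g and Cd247 of 6 pan T cell markers were called higher in the difference from unstimulated to transient cells (median 0.95) and lower in that from transient to continuous cells (median -0.68). The part of RNA length or T cell content was not tested. These comparisons share arrays with one another.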

How the results depend on the processing

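Of the 2273 recomputed values of the 6 genes over 102 results, 2203 stayed on their side of the threshold, 38 lost a call, 32 gained one and 0 reversed with a call. Values called in neither fit count as unchanged whatever their sign, and some of them changed sign. Continuous minus unstimulated and continuous minus transient in CD4 cells called 4 members under every alternative that left out 1 array. Fitting all 28 arrays together, so that the spread of day 2 enters day 5, gave 1 member for CD8 transient minus unstimulated (3 in the fit by day), 1 for CD4 continuous minus unstimulated (from 4), 0 for CD8 minus CD4 in unstimulated cells of day 5 (from 3), 0 in transient cells (from 1) and 1 in continuous cells (from 4). For the differences of changes it gave 1 from unstimulated to transient (from 3), 1 from unstimulated to continuous (from 2) and 1 from transient to continuous (from 4). Il21 was the member still called there from unstimulated to continuous CD4 cells.

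On day 2 no member was called in the fit by day. CD4 stimulation gave 1 with median centring, 2 in the joint fit, 2 without the third unstimulated arrays and 1 with array weights, and CD8 stimulation gave 2, 1, 1 and 1. Bcl6 was among those called for CD8 stimulation after median centring, without the third unstimulated arrays and with array weights. Array weights gave 2 for CD8 minus CD4 stimulated cells of day 2, and 2 (from 1) for CD8 minus CD4 transient cells. Leaving out the lowest 30% of probe sets removed Il21 and gave 1 member (from 2) for the difference of changes from unstimulated to continuous. The day 2 member counts are read beside the calls over all probe sets. CD4 stimulation called 6940 of 20380 probe sets with median centring and 5800 in the joint fit. It called 12704 without the third unstimulated arrays and 6915 with array weights. CD8 stimulation called 5493, 5346, 7097 and 9220 in the same order.

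Leaving out 1 array at a time gave 0 to 1 members for CD4 stimulation on day 2, 0 to 1 for CD8 continuous minus transient, 1 to 4, 1 to 2 and 3 to 5 for CD8 minus CD4 in unstimulated, transient and continuous cells of day 5, and 2 to 3, 2 to 3 and 3 to 4 for the 3 differences of changes. With the replicate block, which the labels do not tie to a shared animal or day, the counts were those of the fit without it, except 4 (from 3) for CD8 minus CD4 unstimulated cells of day 5, where Bcl6 gained a call, and 3 (from 4) for the difference of changes from transient to continuous, where Maf lost its call.

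Counts of calls over all probe sets moved by over 1.5 times on both days. The joint fit lowered all 12 counts of day 5, from 2092 to 9365 down to 32 to 1899: CD4 transient minus unstimulated went from 4643 to 162, CD8 minus CD4 continuous from 2092 to 62 and the difference of changes from unstimulated to continuous from 3889 to 32. One probe set per gene, with fewer tests, gave 1389 to 5867 for these 12. Array weights moved 2 of them, to 3743 (from 2092) and 8147 (from 5401), and leaving out 1 array moved 5, to between 1199 and 3460: either CD4 unstimulated array for CD4 transient or continuous minus unstimulated and for CD8 minus CD4 unstimulated cells, the first of them for the difference of changes from unstimulated to continuous, and the first CD4 or the first or second CD8 continuous array for CD8 minus CD4 continuous cells. On day 2 all 5 counts moved without the third unstimulated arrays, in the joint fit and with array weights. CD4 stimulation called 2214, against 12704 without the third unstimulated arrays, 6940 after median centring and 4649 after quantile normalization, and the share of calls that were higher was 93.9% against 56.5% after centring.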
